A study of Mus musculus with 16 samples.

Results

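The 33 genes described here are the mouse orthologs of genes linked to Alzheimer's disease, Parkinson's disease, amyotrophic lateral sclerosis (ALS) and frontotemporal dementia, by risk variants or by causal mutations. They were taken by symbol from the deposited table of exon read counts, which held all 33 among its 24411 genes. For the description they were put into 6 groups by role: 7 genes of endocytosis and lipid handling, 7 of immune receptor and adhesion signalling together with other Alzheimer loci, 5 of amyloid precursor processing and tau, 7 of progranulin, lysosome, autophagy and ubiquitin, 3 Parkinson genes, and 4 genes that are RNA binding proteins or Sod1. RNA was measured in parenchymal brain macrophages of 8 bone marrow chimeras. The recipients were C57BL/6J mice of genotype WT that had been irradiated with 950 cGy and given bone marrow of CD45.1 donors, so that bone marrow-derived engrafted cells carried CD45.1 and host microglia carried CD45.2. In mice 1 to 4, LPS (lipopolysaccharide, a bacterial endotoxin that drives peripheral inflammation) had been injected intraperitoneally at 2.5 mg/kg 12 h before sorting, and mice 5 to 8 had received no injection. Both populations were sorted from the same brains by gating on CD11b-positive cells without Ly6C/G that had low CD45.1 or CD45.2, which gave 4 groups of 4 libraries (engrafted control, engrafted LPS, host control and host LPS).

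As models, the groups differ in more than origin: host microglia had been through the irradiation and engrafted cells had not, which cannot be told apart from the population in these libraries. The paper reports that engrafted cells also differed from microglia of matched age without irradiation, which are not among these libraries. The labels allow 3.5 or 9 months after transplantation without assigning a time to a library, and both populations of a mouse share that time. The paper states the later of these times for its RNA sequencing of unchallenged chimeras and for its LPS challenge. Each library was made from sorted cells in bulk, in which fewer cells of a type and less RNA per cell cannot be told apart.

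Many of these genes are active in the myeloid cells of the brain. Microglia take up debris, lipids and protein aggregates through endocytosis and clear them in lysosomes, and several Alzheimer risk genes act in that route or in the signalling of immune receptors. Amyloid precursor protein is cut by alpha-, beta- and gamma-secretases, and whether alpha- or beta-secretase cuts first decides whether amyloid-beta can be made. Genes of ALS and frontotemporal dementia act mainly in lysosomes, selective autophagy and the handling of RNA.

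App, Psen2, Tbk1 and Hnrnpa1 were higher after LPS in both populations, as described below. For these 4 members, which were chosen after their values were seen, the 250 bases upstream of each RefSeq start are shown as the sequence context of each gene. They are from the RefSeq annotation of GRCm38.p6, 5′ to 3′ on the strand of the gene, and capitals mark a match to a motif that was searched. Psen2 has 2 starts in that annotation.
App (chr16:85173708-85173957, minus strand): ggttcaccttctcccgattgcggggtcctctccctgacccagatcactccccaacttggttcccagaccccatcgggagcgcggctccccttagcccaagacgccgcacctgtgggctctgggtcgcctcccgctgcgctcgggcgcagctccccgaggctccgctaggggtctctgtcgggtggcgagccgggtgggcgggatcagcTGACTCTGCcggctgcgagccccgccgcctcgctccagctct
Psen2 (chr1:180245951-180246200, minus strand): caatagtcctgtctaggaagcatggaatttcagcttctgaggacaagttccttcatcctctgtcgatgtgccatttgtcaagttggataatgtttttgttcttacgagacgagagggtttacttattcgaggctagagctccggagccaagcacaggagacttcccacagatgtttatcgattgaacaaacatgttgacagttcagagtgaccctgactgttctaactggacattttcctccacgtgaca
Psen2 (chr1:180256301-180256550, minus strand): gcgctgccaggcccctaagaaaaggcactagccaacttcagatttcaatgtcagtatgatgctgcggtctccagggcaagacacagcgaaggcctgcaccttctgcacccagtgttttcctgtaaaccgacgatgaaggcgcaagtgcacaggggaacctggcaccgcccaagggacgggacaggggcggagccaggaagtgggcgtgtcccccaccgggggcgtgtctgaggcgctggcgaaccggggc
Tbk1 (chr10:121586795-121587044, minus strand): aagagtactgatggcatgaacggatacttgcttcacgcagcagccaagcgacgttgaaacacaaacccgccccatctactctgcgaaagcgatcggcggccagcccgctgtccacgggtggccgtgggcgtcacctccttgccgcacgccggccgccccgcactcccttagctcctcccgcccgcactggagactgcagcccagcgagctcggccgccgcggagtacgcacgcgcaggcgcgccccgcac
Hnrnpa1 (chr15:103240147-103240396, plus strand): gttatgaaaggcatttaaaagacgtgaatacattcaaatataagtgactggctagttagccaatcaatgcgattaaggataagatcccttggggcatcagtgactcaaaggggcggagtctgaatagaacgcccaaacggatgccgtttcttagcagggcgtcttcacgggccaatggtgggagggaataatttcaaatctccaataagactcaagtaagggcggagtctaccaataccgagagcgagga

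Of the 33 members, 26 were in the promoter table, with 31 promoters. On both strands, the antioxidant response element TGACNNNGC was present in 7 of the 31 (22.6%), against 10.2% of all 32851 promoters of that length. These 7 belonged to App, Cd2ap, Picalm, Rin3, Sod1, Tmem106b and Vcp, and the match of App is the capital stretch above. An NF-kappaB form (GGGA, any 2 bases, then TTCC) was in none of the 31 and in 1.21% of all promoters. The interferon-stimulated response element (GAAA, any 2 bases, then GAAA) was found in Zcwpw1 (2.98% of all promoters), the lysosomal CLEAR core TCACGTGA in Picalm (0.785%), where it overlapped the antioxidant element, and the PU.1 form GAGGAAGT in Inpp5d (2.44%). These matches describe letters in this window and were not tested against the expression values.

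Libraries held 395283 to 1203597 reads on genes, and the shallowest was that of the engrafted cells of LPS mouse 4. Values are given as CPM, the read count of a gene relative to the library's total on a common scale, after TMM scaling, which corrects for differences in library composition. They come from a 3′ protocol and are compared here between groups and not between genes. A gene passed the test at an adjusted p below 0.05 in the quasi-likelihood test of edgeR, adjusted by Benjamini-Hochberg over all genes tested, and SE is the standard error of a log2 fold change. Where no read was seen, a level of up to 3 reads remains possible, which corresponds to 2.39 CPM in the deepest and 8.41 CPM in the shallowest library and covers counting error only. Reads of each listed microglia marker were found in all libraries. Their summed level was 6276 to 7467 CPM in engrafted control and 16101 to 18854 CPM in host control. After LPS it was 2591 to 3448 and 7499 to 9733 CPM. Sall1 was near the limit of 3 reads in some engrafted libraries, at minima of 3.37 CPM without and 2.80 CPM with LPS. It was 289 to 361 CPM in host control. Another marker, Fcrls, had means of 2310 CPM in engrafted and 2337 CPM in host control. A list of 4 monocyte markers summed to 55.8 to 96.7 CPM in engrafted control and 852 to 1937 CPM in engrafted LPS, against 2.39 to 19.4 CPM in host libraries. Neutrophil markers reached 1214 CPM in engrafted control and 15.0 CPM in host libraries. Ly6g of that list had at most 1 read in an engrafted control library and 2 in an engrafted LPS library. Red blood cell markers summed to 9066 CPM in engrafted LPS mouse 4 and 5989 CPM in engrafted control mouse 8, against 5.20 to 104 CPM in the other engrafted libraries and 3.19 to 1207 CPM in host libraries. The library of engrafted LPS mouse 4 also differed from its replicates by 6.86 to 8.96 times counting noise (chi-square per degree of freedom), and the other pairs of that group by 2.64 to 3.94. Results without these 2 libraries are given where they changed a call. The source of these monocyte, neutrophil and red blood cell markers and their part in the results were not tested.

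**Figure D1:**
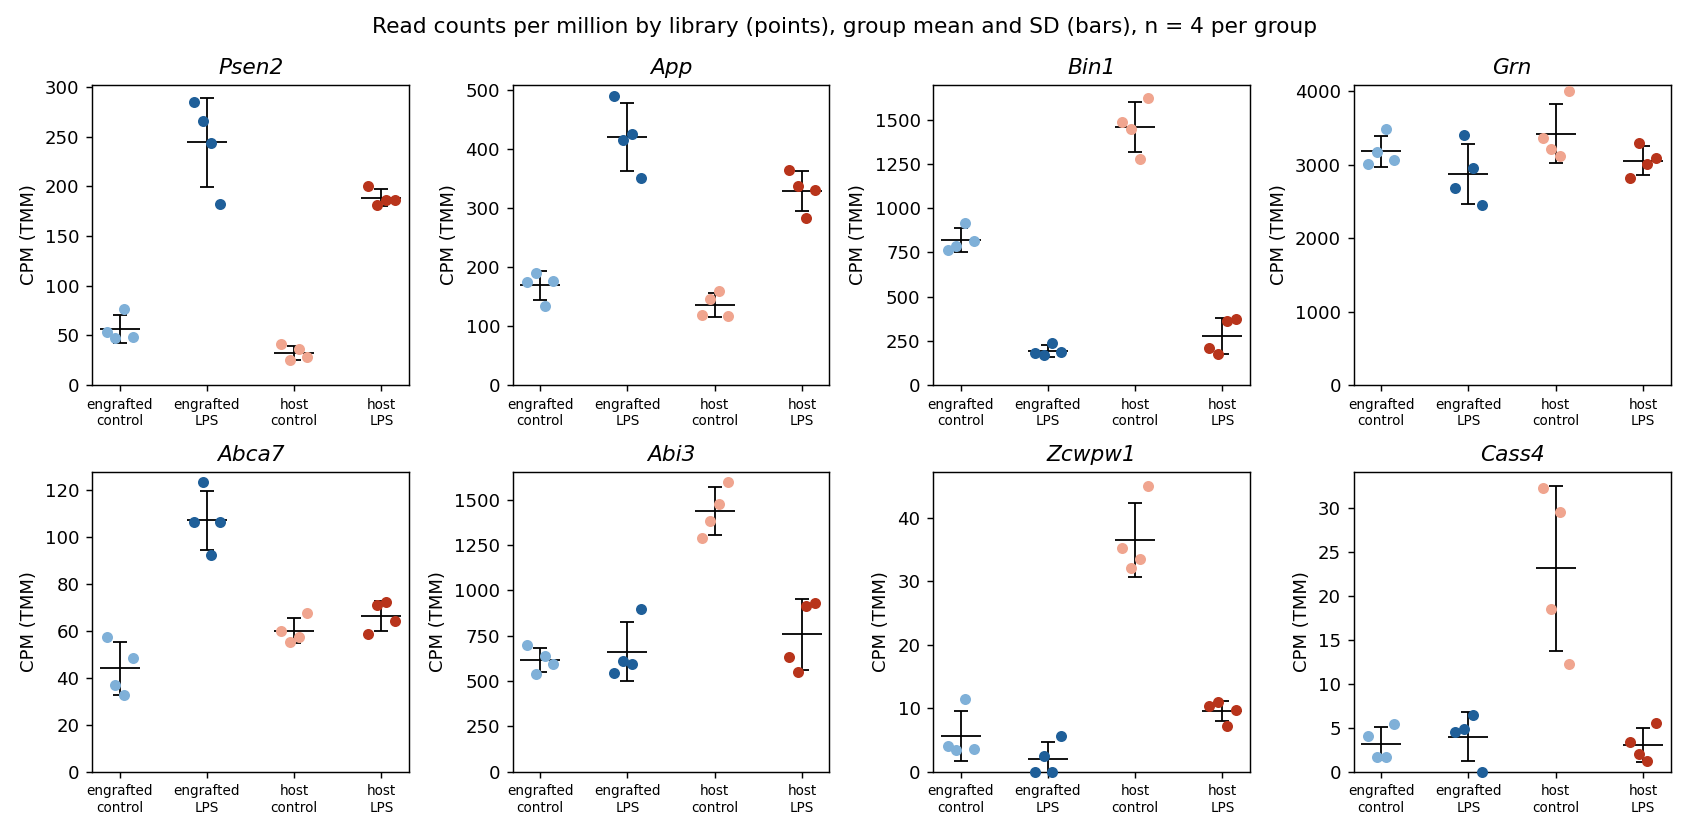
CPM (linear axis from 0) of 8 members in each of the 16 libraries (points), with the mean and SD of each group of 4 (bars). Psen2 and App were higher and Bin1 lower after LPS in both populations, Grn stayed between 2447 and 4008 CPM, Abca7 was highest in engrafted LPS, and Abi3, Zcwpw1 and Cass4 were highest in host control.

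Without challenge, the members that differed between engrafted cells and host microglia included Bin1 and all tested members of the group of signalling genes and other Alzheimer loci. Of 27 members tested, 10 passed (37.0%), where 27.3% of all 8042 genes tested passed. In engrafted cells 4 members were higher (all genes: 13.6%) and 6 were lower (all genes: 13.7%). Of the 10, Abi3 and Zcwpw1 differed by more than 2-fold (all genes: 11.0%), and Zcwpw1 was tested only through its reads in host control. The median log2 fold change was -0.12 for the members and 0.018 for all genes. All 5 tested members of that group were lower in engrafted cells: Abi3, Zcwpw1, Plcg2, Inpp5d and Ptk2b. Zcwpw1 is not a signalling gene, and the calls of Inpp5d and Ptk2b were lost in some alternatives, as given below. The 6 tested members of the progranulin, lysosome, autophagy and ubiquitin group and the 2 tested Parkinson genes did not pass.

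Abi3 (chromosome 11, 95691386 to 95703753, minus strand, in NCBI37/mm9, from the deposited table as are the positions below) encodes an adaptor of the WAVE complex, which controls actin. Its level was 699, 541, 636 and 596 CPM in engrafted control mice 5 to 8. In host microglia of the same mice it was 1287, 1381, 1477 and 1599 CPM. Every host library was above every engrafted library, with a log2 fold change of -1.16 (SE 0.11, adjusted p = 9.94e-09, edgeR). Plcg2, a phospholipase downstream of immune receptors, was 116 ± 9.74 CPM in engrafted and 195 ± 24.1 CPM in host cells (SD, n = 4), and Inpp5d, a phosphatase that restrains such signalling, was 404 ± 33.6 and 551 ± 20.8 CPM (adjusted p = 0.000419 and 0.0140, edgeR). Neither gene's libraries overlapped between populations, and 26.6% of all genes had no overlap. The Inpp5d call was lost with all 16 libraries in one fit (adjusted p = 0.102, edgeR). Ptk2b, a focal adhesion kinase, was 61.5 ± 11.0 against 88.7 ± 7.88 CPM (adjusted p = 0.0411, edgeR). That call was lost when any library other than host mouse 7 was left out (adjusted p 0.0502 to 0.153, edgeR), and with DESeq2 (0.0989) or all 16 libraries in one fit (0.0813).

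Zcwpw1 (chromosome 5, 138229030 to 138263849, plus strand), which encodes a reader of histone methylation, had few reads. It was 4.03, 3.37, 11.5 and 3.60 CPM in engrafted control (2 to 7 reads) and 35.1, 32.0, 33.5 and 44.9 CPM in host control (24 to 44 reads). The groups did not overlap, and the log2 fold change was -2.64 (SE 0.36, adjusted p = 2.64e-06, edgeR). Zcwpw1 met the filter on low counts through host control alone, the group where it was high, so this call rests on that group. Cass4 (chromosome 2, 172219294 to 172259257, plus strand), a scaffold of focal adhesions, was too low for the test across genes. It had 1 to 4 reads in each engrafted control library (1.64 to 5.40 CPM) and 12 to 37 in each host control library (12.3 to 32.2 CPM). These groups did not overlap either, and an exact permutation test gave p = 0.0286, the smallest it can give with 4 libraries against 4 (two-sided). That test ignores that both populations came from the same mice. Exchange within the 4 mice gave an exact p of 0.125, the smallest it allows, for this value and for those of Zcwpw1 and Lrrk2 below.

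Bin1 (chromosome 18, 32536871 to 32595394, plus strand), which shapes membranes in endocytosis, was 765, 784, 916 and 813 CPM in engrafted control. In host control it was 1487, 1448, 1277 and 1623 CPM. All host libraries were higher, and the log2 fold change of engrafted against host cells was -0.78 (SE 0.11, adjusted p = 5.39e-06, edgeR). The lower levels of Bin1 and Abi3 in engrafted cells stood beside lower sums of the microglia marker list, and whether they are related was not tested.

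The 4 members higher in engrafted cells belonged to 3 groups. Psen2 (chromosome 1, 182157135 to 182176081, minus strand), a catalytic subunit of gamma-secretase, was 53.4, 47.2, 77.0 and 48.6 CPM in engrafted control and 41.0, 25.2, 35.9 and 28.6 CPM in host control. Its libraries did not overlap, and the log2 fold change was 0.86 (SE 0.22, adjusted p = 0.00378, edgeR). Sod1 (chromosome 16, 90220987 to 90226569, plus strand), the cytosolic superoxide dismutase, was 166, 212, 220 and 261 CPM against 154, 146, 171 and 162 CPM. The lowest engrafted library lay within the host range, and the log2 fold change was 0.49 (SE 0.15, adjusted p = 0.0149, edgeR). The Sod1 call was lost without engrafted mouse 8 or host mouse 6 (adjusted p 0.0650 and 0.0533, edgeR), and with all 16 libraries in one fit (0.0741). Tardbp, which encodes the RNA binding protein TDP-43, was 94.3 ± 24.0 against 67.3 ± 3.00 CPM (log2 fold change 0.54, adjusted p = 0.0199, edgeR). Its call was lost without engrafted mouse 6, engrafted mouse 8 or host mouse 6 (adjusted p 0.0535 to 0.0970, edgeR). The paper, which required a 2-fold difference, lists Tardbp among genes of similar level in both populations. Sorl1, a sorting receptor for amyloid precursor protein, was 37.8 ± 6.57 against 24.3 ± 10.2 CPM, with 1 host library (mouse 5, 39.5 CPM) above 3 of the 4 engrafted ones. The Sorl1 call (adjusted p = 0.0382, edgeR) was lost without engrafted mouse 5, 6 or 7 or host mouse 6, 7 or 8 (0.0508 to 0.125), and with library totals, DESeq2 or all 16 libraries in one fit (0.0671, 0.0686 and 0.204). Without host mouse 6, 6 of the 27 members passed, and the share of all genes in that setting is not given here.

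**Figure D2:**
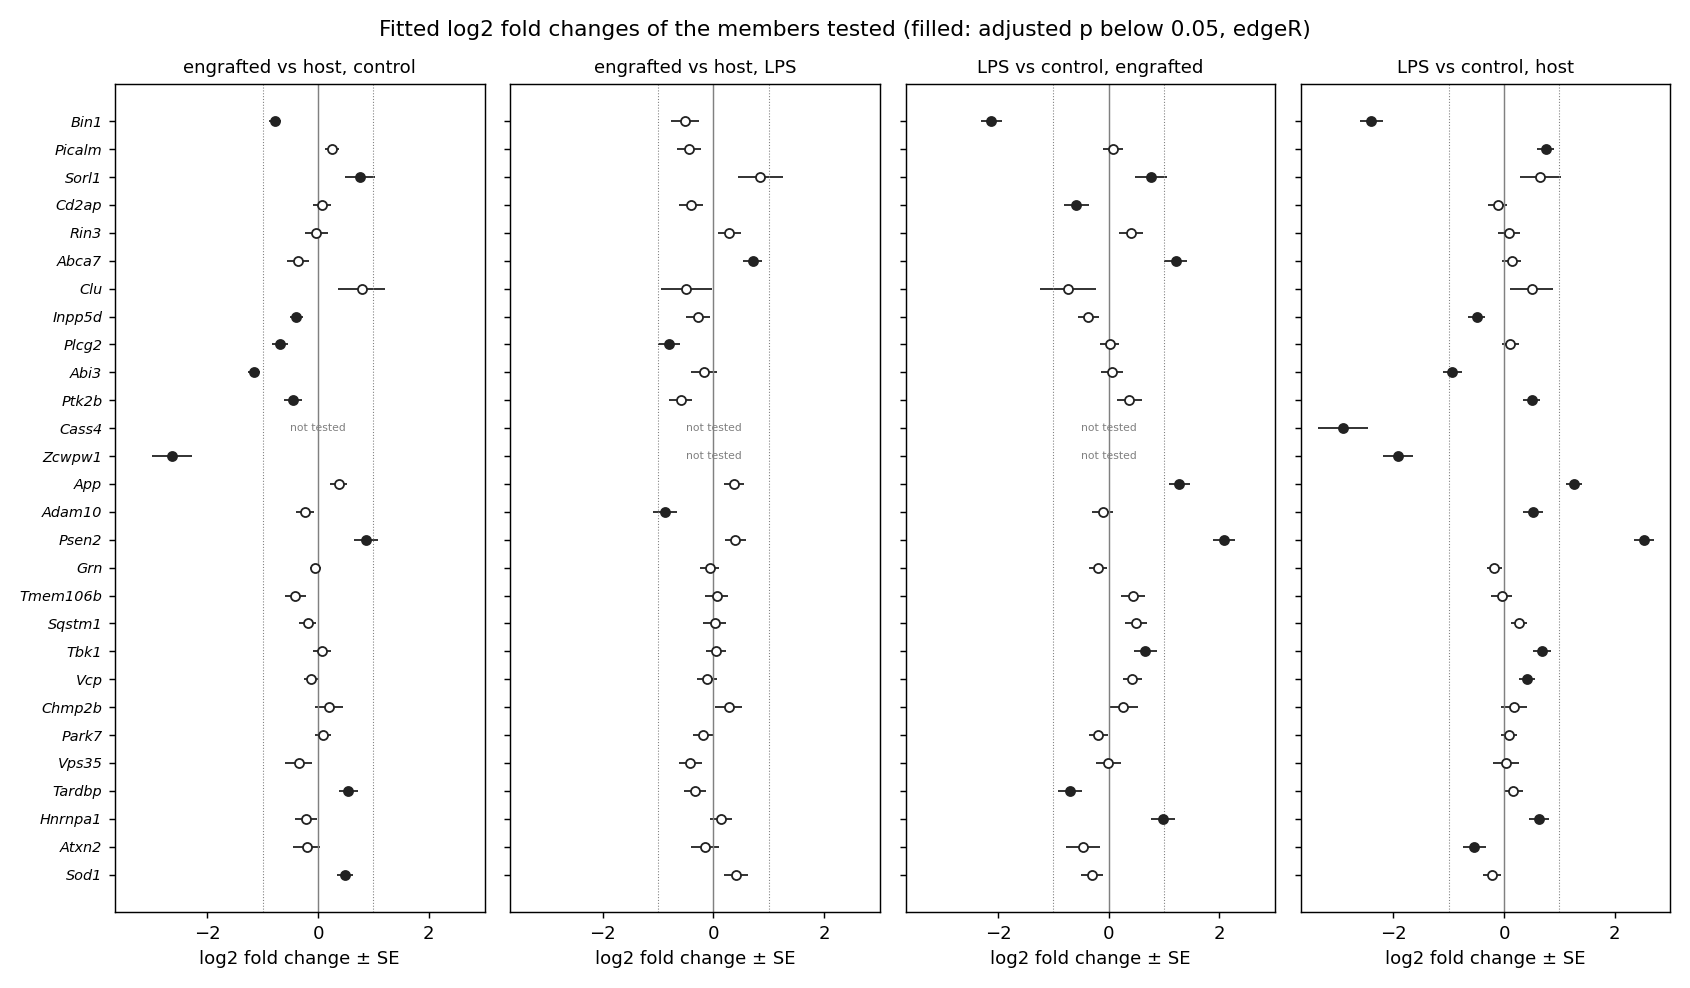
Fitted log2 fold changes with SE (horizontal axes) of the 28 members tested in at least 1 comparison, in 4 comparisons; filled points passed the adjusted p of 0.05 and dotted lines mark a 2-fold difference. Between populations 10 members passed without LPS and 3 with LPS, and LPS changed 9 in engrafted cells and 14 in host microglia.

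After LPS, 3 of 26 members tested passed between populations (11.5%), against 17.1% of all 7843 genes tested. Abca7 (chromosome 10, 79460360 to 79478317, plus strand), a lipid transporter, was the only one of the 3 that was higher in engrafted cells (all genes: 9.52%), and Plcg2 and Adam10, the main alpha-secretase, were lower (all genes: 7.62%). For each of these 3 genes the libraries of both populations did not overlap, as was the case for 20.6% of all genes. Plcg2 was 119 ± 23.3 CPM in engrafted and 213 ± 35.5 CPM in host cells, with a log2 fold change of -0.80 (SE 0.20, adjusted p = 0.00783, edgeR), close to the -0.69 found without challenge. Adam10 was 80.4 ± 16.8 CPM in engrafted and 152 ± 36.9 CPM in host cells (log2 fold change -0.87, SE 0.21, adjusted p = 0.00801, edgeR). Abi3, which differed most clearly among well-covered members without challenge, was 662 ± 161 against 757 ± 196 CPM (log2 fold change -0.17, SE 0.24, adjusted p = 0.702, edgeR). No member differed by more than 2-fold at this threshold in edgeR, whereas 11.1% of all genes did. Without the shallow library of engrafted mouse 4, 6 members passed. The share of all genes in that setting is not given here, so this count is not a result about the members. Zcwpw1 was too low for this test, at 0 to 5.61 CPM in engrafted LPS (0 to 2 reads) and 7.24 to 11.0 CPM in host LPS (6 to 11 reads). The groups did not overlap (exact permutation p = 0.0286, two-sided). The host LPS mean was 1.98 times the limit of 3 reads in engrafted LPS, a ratio that allows for counting error in engrafted libraries only.

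LPS changed 9 of 26 members tested in engrafted cells (34.6%), where 38.7% of all 7609 genes changed. In host microglia it changed 14 of 28 (50.0%), where 39.7% of all 8238 genes changed. These comparisons share no library, but both rest on the same 8 mice. In engrafted cells 6 members rose (all genes: 19.4%) and 3 fell (19.3%), and in host microglia 8 rose (19.2%) and 6 fell (20.5%). More than 2-fold changes were seen for 4 members in engrafted cells (all genes: 21.5%) and 5 in host microglia (18.0%). Cass4 and Zcwpw1, which met the filter on low counts through host control, are among the 14 and the 5 of host microglia. Libraries with and without LPS did not overlap for 7 members in engrafted cells (all genes: 35.0%) and 13 in host microglia (35.7%). Psen2, App, Tbk1 and Hnrnpa1 rose and Bin1 fell in both.

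The amyloid precursor group held the largest increases. Psen2 was 285, 266, 243 and 182 CPM in engrafted LPS mice 1 to 4, above all engrafted control libraries. In host LPS it was 201, 182, 186 and 186 CPM, again above all controls. The log2 fold change was 2.08 in engrafted cells (SE 0.20, adjusted p = 1.06e-07, edgeR) and 2.53 in host microglia (SE 0.18, adjusted p = 3.78e-10, edgeR). App (chromosome 16, 84954681 to 85173952, minus strand), which encodes the amyloid precursor protein itself, went from 174, 190, 134 and 176 CPM to 490, 416, 425 and 350 CPM in engrafted cells. In host microglia it went from 119, 146, 159 and 117 CPM to 365, 337, 284 and 331 CPM. Neither population's libraries overlapped, and the log2 fold changes were 1.28 (SE 0.18, adjusted p = 1.45e-05, edgeR) and 1.27 (SE 0.15, adjusted p = 7.02e-07, edgeR). Adam10 rose in host microglia by a log2 fold change of 0.52 (adjusted p = 0.0298, edgeR), a call lost without host LPS mouse 3 or 4 or host control mouse 5 or 8 (adjusted p 0.0616 to 0.105, edgeR).

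Bin1 fell more than any other well-covered member. It was 179, 168, 239 and 185 CPM in engrafted LPS and 209, 176, 361 and 371 CPM in host LPS, below every control library of the same population. The log2 fold change was -2.12 in engrafted cells (SE 0.19, adjusted p = 2.66e-08, edgeR) and -2.40 in host microglia (SE 0.20, adjusted p = 6.17e-09, edgeR). Microglia markers also fell in both populations, and their relation to Bin1 was not tested. Picalm, Sorl1 and Cd2ap of the same group passed in 1 population each, and the interaction of none of them passed. Picalm, a clathrin assembly protein, rose in host microglia from 238 ± 17.8 to 405 ± 82.7 CPM (log2 fold change 0.75, adjusted p = 0.000568, edgeR). In engrafted cells Sorl1 rose (log2 fold change 0.77, adjusted p = 0.0424, edgeR) and Cd2ap, an adaptor between membranes and actin, fell (-0.59, adjusted p = 0.0441). Both of these calls were lost without any of 6 of the 8 libraries, those other than engrafted LPS mouse 4 and control mouse 6 for Sorl1 and those other than LPS mouse 3 and control mouse 5 for Cd2ap (adjusted p 0.0675 to 0.180 and 0.0674 to 0.139, edgeR). Sorl1 was also lost with library totals, DESeq2 or all 16 libraries in one fit (0.0665 to 0.0941). Cd2ap was also lost with DESeq2, with no filter on low counts, and without both libraries high in red blood cell markers (0.0585 to 0.162).

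In host microglia 4 members of the group of signalling genes and other Alzheimer loci fell and Ptk2b rose, and none of the 4 tested in engrafted cells passed. The test of that difference passed for Abi3, as given below, and not for Inpp5d, Ptk2b, Plcg2 or Zcwpw1 (adjusted p = 0.856, 0.823, 0.859 and 0.984, edgeR). Cass4 and Zcwpw1 had too few reads in engrafted cells for a response to be measured there. Zcwpw1 had 2 to 7 reads in engrafted control and 0 to 2 in engrafted LPS libraries, so its interaction cannot show a like response. Cass4 went from 12 to 37 reads in each host control library to 1 to 4 reads in each host LPS library. Its log2 fold change was -2.92 (SE 0.45, adjusted p = 2.20e-05, edgeR). Cass4 met the filter on low counts through host control alone, the group where it was high, so this call rests on that group. Zcwpw1 went from 36.4 ± 5.82 to 9.57 ± 1.63 CPM (log2 fold change -1.91, SE 0.27, adjusted p = 6.16e-06, edgeR). It too met the filter through host control, with 6 to 11 reads in host LPS libraries. Abi3 was 631, 549, 916 and 932 CPM in host LPS, below all host controls, with a log2 fold change of -0.94 (SE 0.17, adjusted p = 0.000120, edgeR). Inpp5d fell by 0.49 on the log2 scale and Ptk2b rose by 0.50 (adjusted p = 0.0142 and 0.0149, edgeR). The Inpp5d call was lost without host LPS mouse 1 (adjusted p = 0.0608, edgeR) and the Ptk2b call without host control mouse 7 (0.0655).

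Among autophagy and lysosome genes, Tbk1, a kinase that phosphorylates autophagy receptors and also drives interferon induction, rose from 73.4 ± 11.6 to 117 ± 27.7 CPM in engrafted cells and from 72.0 ± 6.45 to 116 ± 13.6 CPM in host microglia. The log2 fold changes were 0.67 (adjusted p = 0.0122, edgeR) and 0.69 (adjusted p = 0.00190, edgeR). The first was lost without engrafted LPS mouse 2 or control mouse 5 (adjusted p 0.0568 and 0.0630, edgeR). Vcp, an ATPase that extracts ubiquitinated proteins, rose in host microglia from 178 ± 10.5 to 239 ± 24.2 CPM (adjusted p = 0.0225, edgeR), and was 158 ± 18.5 and 218 ± 25.7 CPM in engrafted cells (adjusted p = 0.0568). The host call of Vcp was lost without LPS mouse 1 or control mouse 6 or 8 (adjusted p 0.0619 to 0.0653, edgeR). Sqstm1, the autophagy receptor p62, Tmem106b, a lysosomal membrane protein, and Chmp2b, a subunit of ESCRT-III, passed in no comparison. Grn (chromosome 11, 102291636 to 102298123, plus strand), which encodes progranulin, was also among these. It was 3004, 3176, 3487 and 3058 CPM in engrafted control, and 2684, 3400, 2959 and 2447 CPM in engrafted LPS. In host microglia it was 3357, 3216, 3117 and 4008 CPM, and 2820, 3300, 3004 and 3087 CPM after LPS. The groups overlapped in every comparison, with log2 fold changes from -0.19 to -0.051.

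Of the Parkinson genes, Park7 (chromosome 4, 150271242 to 150284030, minus strand), which encodes the redox-sensitive protein DJ-1, was 232 ± 26.4 CPM in engrafted control, 209 ± 14.4 in engrafted LPS, 226 ± 31.6 in host control and 242 ± 21.9 in host LPS. Vps35, the core of the retromer that returns receptors from endosomes, was 60.5 ± 18.3, 63.3 ± 7.81, 82.8 ± 30.3 and 85.6 ± 18.1 CPM in the same order. Neither passed in any comparison. Of the RNA binding proteins, Hnrnpa1, a splicing factor, rose from 38.8 ± 6.52 to 77.5 ± 15.5 CPM in engrafted cells (adjusted p = 0.00137, edgeR) and from 46.3 ± 3.55 to 72.1 ± 12.9 CPM in host microglia (adjusted p = 0.00944, edgeR). Reads of Hnrnpa1 are uncertain, since it has near-identical processed copies and only uniquely mapped reads were kept. Atxn2, a regulator of translation and stress granules, fell in host microglia from 57.1 ± 5.35 to 40.0 ± 9.21 CPM (adjusted p = 0.0403, edgeR), a call lost without LPS mouse 1 or 2 or control mouse 5, 6 or 8 (0.0619 to 0.154), and with DESeq2, no filter on low counts or all 16 libraries in one fit (0.0673 to 0.107). Sod1 passed in neither population.

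**Figure D3:**
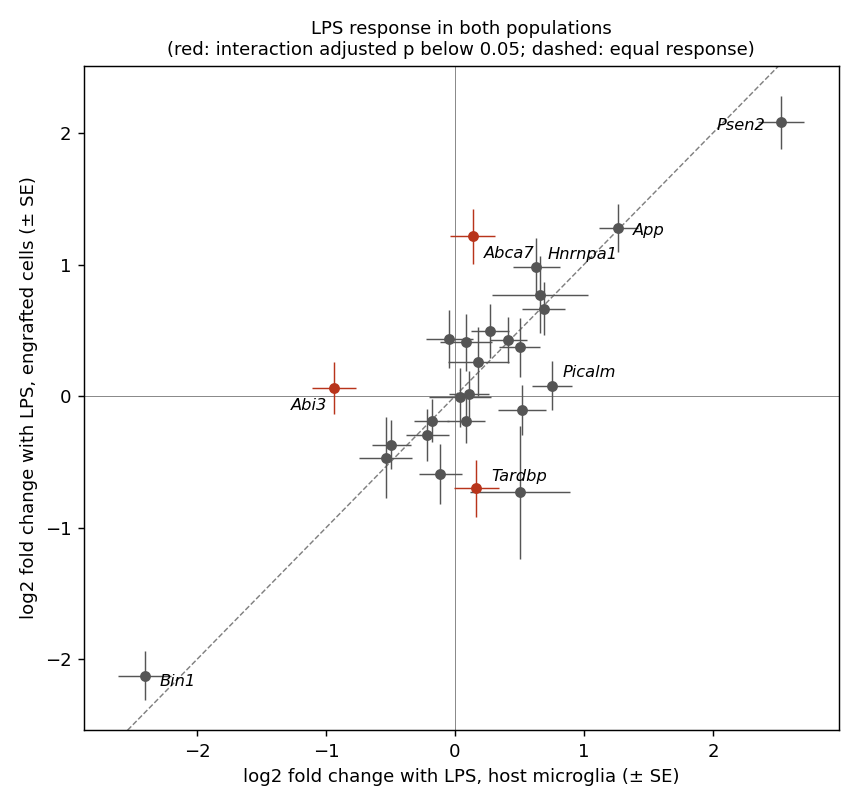
Log2 fold change with LPS in host microglia (horizontal) and in engrafted cells (vertical), each with its SE, for the 26 members tested in both; red points passed the interaction test and the dashed line marks equal responses. Psen2, App and Bin1 lie near the line, and Abca7, Abi3 and Tardbp lie off it.

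The response to LPS itself was compared between populations by the interaction term over all 16 libraries. Of 28 members tested, 4 passed (14.3%), against 5.88% of all 8847 genes tested. Among these, Cass4 met the filter on low counts through host control alone. The other groups held at most 5 reads of it per library, so its call rests on host control. Without both engrafted libraries high in red blood cell markers 2 passed, Abca7 and Cass4 (all 9145 genes tested: 286 higher and 259 lower). Abca7 was 57.4, 37.1, 32.8 and 48.6 CPM in engrafted control and 106, 123, 92.4 and 107 CPM in engrafted LPS. In host microglia it was 60.0, 55.4, 57.4 and 67.4 CPM without and 58.5, 70.8, 72.4 and 64.0 CPM with LPS. The increase was seen in all engrafted LPS libraries, and the ranges of the host groups overlapped. The log2 fold change was 1.21 in engrafted cells (SE 0.21, adjusted p = 0.000121, edgeR) and 0.14 in host microglia (SE 0.17, adjusted p = 0.569, edgeR), and the interaction was 1.07 (SE 0.26, adjusted p = 0.0111, edgeR). The monocyte marker list rose in the same engrafted libraries, and its part in the Abca7 value was not tested.

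Abi3 was 544, 612, 592 and 900 CPM in engrafted LPS, a log2 fold change of 0.062 from engrafted control (SE 0.20, adjusted p = 0.831, edgeR), while it fell in host microglia. The interaction was 0.99 (SE 0.27, adjusted p = 0.0249, edgeR) and was lost without engrafted control mouse 6, host LPS mouse 1 or host control mouse 8 (adjusted p 0.0596 to 0.0626, edgeR), and without both libraries high in red blood cell markers (0.0581), where the log2 fold change of Abi3 in engrafted cells was -0.15. For Cass4 the interaction was 3.31 (SE 0.86, adjusted p = 0.0189, edgeR), but engrafted libraries held 0 to 5 reads of it in either condition, so a fall there was not detectable at this depth. Without engrafted LPS mouse 3 its adjusted p was 0.0562. Tardbp was 94.3 ± 24.0 and 58.9 ± 7.68 CPM in engrafted cells without and with LPS (log2 fold change -0.70, adjusted p = 0.0134, edgeR, and 0.0602 without control mouse 6), and 67.3 ± 3.00 and 75.9 ± 12.6 CPM in host microglia. Its interaction of -0.88 (SE 0.26, adjusted p = 0.0460, edgeR) gave adjusted p = 0.0622 with the mouse as replicate block, 0.0588 to 0.103 with RLE size factors, DESeq2, no filter on low counts or without both libraries high in red blood cell markers, and 0.0547 to 0.122 without any 1 of 14 of the 16 libraries, the exceptions being engrafted LPS mouse 4 and engrafted control mouse 7. The interactions of Psen2 (-0.45, SE 0.26, adjusted p = 0.361, edgeR) and Bin1 (0.27, SE 0.28, adjusted p = 0.669) did not pass, which does not show equal responses.

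Epha1, an ephrin receptor, had no read in any library, and Bace1, Mapt, Optn and Lrrk2 were too low for every test across genes. Bace1, the beta-secretase, had at most 7 reads in a library. Optn, an autophagy receptor, had at most 16 reads. Lrrk2, a kinase mutated in Parkinson's disease, had 1 to 6 reads in every engrafted library and 0 or 1 in every host library. In engrafted control this was 6.04, 5.06, 6.55 and 1.80 CPM, and in host control 1.46 CPM in mouse 5 and 0 in the others. Those groups did not overlap (exact permutation p = 0.0286, two-sided). The engrafted control mean was 1.52 times the limit of 3 reads in host control. That ratio allows for counting error in host libraries only, and 2 of the 4 engrafted control libraries held 3 reads or fewer. After LPS the ranges overlapped, and the exact permutation p was 0.0571.

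Mapt, which encodes the neuronal protein tau, was 35.1 CPM (24 reads) in host control mouse 5 and 0 to 6.55 CPM in the other 15 libraries. In that library a list of 8 neuron markers summed to 190 CPM, against 5.56 to 64.1 CPM in the others. Clu, a secreted chaperone that astrocytes also make, spread widely within groups, from 4.92 to 75.6 CPM in engrafted control and from 13.8 to 70.9 CPM in host LPS, and passed in no comparison. The astrocyte list summed to 13.1 to 53.9 and 156 to 222 CPM in those groups, mostly from Slc1a3 in host cells. Rin3, a regulator of Rab5, was 46.0 to 62.7 CPM in group means and passed in no comparison.

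**Figure D4:**
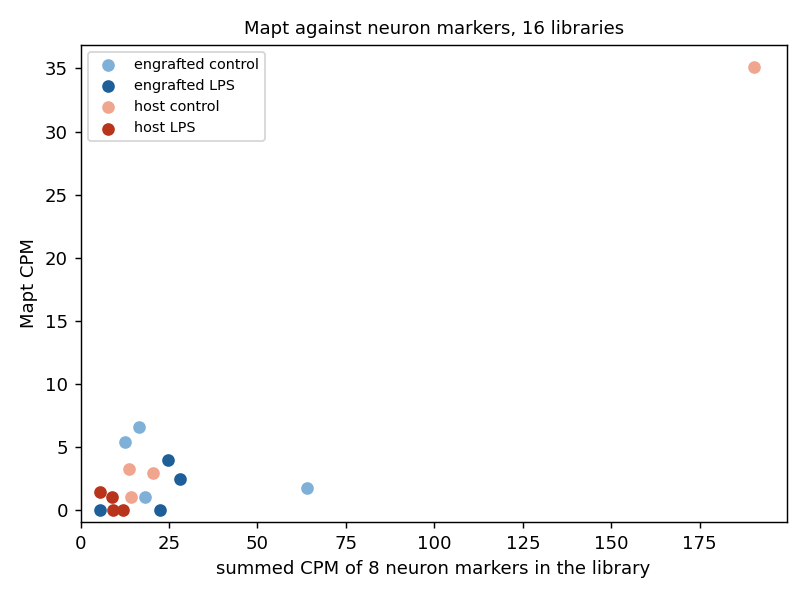
Mapt CPM (vertical) against the summed CPM of 8 neuron markers (horizontal) in the 16 libraries, coloured by group. The library of host control mouse 5 stands apart on both axes, at 35.1 and 190 CPM.

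The same pathways were followed through 84 further genes in 7 lists. Without LPS 3 of 79 tested were higher and 8 lower in engrafted cells (all genes: 13.6% and 13.7%), and after LPS 9 of 75 were higher and 4 lower (9.52% and 7.62%). LPS raised 19 and lowered 12 of 77 in engrafted cells (all genes: 19.4% and 19.3%), and raised 17 and lowered 19 of 78 in host microglia (19.2% and 20.5%). Beside Psen2, the gamma-secretase subunit Aph1c was 28.4 ± 10.2 CPM in engrafted and 2.84 ± 1.28 CPM in host control. In those host libraries 3 reads correspond to 2.39 to 4.39 CPM, so the host level is near the limit. Aph1c fell with LPS in engrafted cells to 11.7 ± 3.17 CPM (log2 fold change -1.20, adjusted p = 0.0106, edgeR). Aph1a rose with LPS in engrafted cells from 16.6 ± 5.01 to 34.4 ± 8.89 CPM. Sort1, a sorting receptor related to Sorl1, was lower in engrafted cells in both conditions, with log2 fold changes of -1.27 and -1.27, and rose with LPS by 1.04 in engrafted and 1.03 in host cells. Blnk, an adaptor that recruits Plcg2, fell with LPS in both (log2 fold changes -1.98 and -1.89). In the interaction 4 of 80 genes passed (all genes: 5.88%), and the clathrin adaptor subunit Ap2a2 (1.29), Rab5c (1.25), which acts on early endosomes, and the ESCRT-III subunit Chmp4b (1.09) exceeded 2-fold, all with the larger rise in engrafted cells.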

How the data were processed

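RNA of both populations of 8 chimeras was sequenced by a derivation of MARS-seq, a 3′ protocol. The deposited values are raw counts of reads for each gene. The authors had mapped reads with HISAT (version 0.1.5 per the submitters' processing notes) to NCBI37 (mm9), and uniquely mapped reads on RefSeq exons were counted on the sense strand with HOMER. No removal of PCR duplicates is described in the study's methods, so limits of detection cover counting error only. Samples outside these 16 libraries were not analysed here. Members and lists were chosen with earlier results of these data known.

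Tests were run in R 4.3.3 with edgeR 4.0.16: filter for low counts (minimum count 10, total 15), TMM, quasi-likelihood F test on the groups compared, and Benjamini-Hochberg adjustment over all genes tested. Full statistics are given for members past 2-fold and an adjusted p of 0.05 in any comparison, and for the member of highest mean CPM in each group. Other genes were named from their pathway list where they passed the same thresholds. Members that failed the filter were compared by two-sided exact permutation tests. Both libraries of a mouse came from 1 animal per the labels, and their deviations from the group means correlated with a Pearson's r of -0.0298 to 0.210 over 8847 genes, against means of -0.0629 to 0.00801 with other mice. No term for the mouse was used in the main tests. It was tried as replicate block among the alternatives, with RLE size factors, library totals, DESeq2 1.42.0, other filters, 1 fit of 16 libraries, and leaving out each library. Added after the data were seen were exact exchange within mice and leaving out both engrafted libraries high in red blood cell markers (LPS mouse 4, control mouse 8). Replicate libraries differed by 2.03 to 8.96 times counting noise (chi-square per degree of freedom, 24 pairs). Nothing beyond the animal separates the replicates in the labels. Promoters were taken from RefSeq (GRCm38.p6).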

Additional observations from a re-analysis of the deposited data

Results flagged for a closer look

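In 6 of 112 groups of 4 libraries looked at (28 members), 1 library lay far from the other 3 by Dixon's criterion, and chance flags about 1 in 20 groups. These were Sorl1 in host control mouse 5 (39.5 CPM, others 17.5 to 20.7), Ptk2b in engrafted control mouse 8 (45.0 CPM, others 66.5 to 67.4), Zcwpw1 in engrafted control mouse 7 (11.5 CPM, others 3.37 to 4.03), Vps35 in host control mouse 8 (37.8 CPM, others 92.3 to 103), Hnrnpa1 in engrafted control mouse 8 (48.6 CPM, others 35.3 to 36.05) and Atxn2 in engrafted LPS mouse 4 (22.4 CPM, others 36.4 to 39.0).

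The interaction term of edgeR, which compares the response to LPS between populations, passed for Abca7 (1.07 on the log2 scale), Abi3 (0.99), Cass4 (3.31) and Tardbp (-0.88). Cass4 fell in host microglia, but engrafted libraries held 0 to 5 reads of it, so no response was measurable there. The Tardbp call was lost in 14 of the 16 settings that left out 1 library and in 5 other alternatives, the replicate block among them (adjusted p 0.0622). The Abi3 call was lost in 3 of the 16 and without both engrafted libraries high in red blood cell markers (0.0581).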

How the results depend on the processing

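Of 40 calls, 23 were kept in every alternative run, 16 were lost in some setting that left out 1 library, 9 in some other alternative, and none changed direction. Requiring a 2-fold difference as well left 2, 0, 4 and 5 members (engrafted against host without and with LPS, and LPS in engrafted and host cells) in place of 10, 3, 9 and 14. After LPS, 6 members passed between populations with no filter on low counts and 5 with all 16 libraries in one fit. Of all genes, 1122 were higher and 799 lower of 14823 in the first setting, and 966 and 872 of 8847 in the second. Leaving out 1 library gave 6 to 11, 3 to 6, 7 to 10 and 11 to 15 members, and 2 to 4 in the interaction. The share of all genes is not given for these settings, so the counts describe the stability of calls only. Leaving out both engrafted libraries high in red blood cell markers was a setting chosen after the data were seen. There, 9 members passed with LPS in engrafted cells and 2 in place of 4 in the interaction. Of all 8102 genes tested with LPS in engrafted cells, 1584 were higher and 1633 lower in that setting. With the mouse as replicate block, 10, 4 and 3 members passed between populations without LPS, with LPS and in the interaction. Of all genes, 1116 were higher and 1104 lower of 8042, 833 and 665 of 7843, and 313 and 301 of 8847. Apart from the interaction of Tardbp, this block ended no call in edgeR. Exact exchange within mice gave p = 0.125 for Cass4, Zcwpw1 and Lrrk2 between populations, the smallest it allows. Among values that had not passed, leaving out 1 library gave log2 fold changes of -0.097 to 0.028 without LPS and -0.14 to 0.0013 with LPS for Grn between populations, of -0.12 to 0.17 for Abi3 with LPS in engrafted cells, and of -0.0034 to 0.17 for Park7 with LPS in host microglia. The Abi3 value was -0.034 with library totals and -0.048 with at least 10 reads in every library, and -0.15 without the libraries high in red blood cell markers. The causes were not tested. Scaling by library totals moved the median of all genes by -0.15 (log2) between populations after LPS, and 132 of 132 group means stayed within 1 SD on that scale. Depth limits what can be said of members with 3 reads or fewer in a library.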
